A study of Mus musculus with 10 samples.

Results

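The genes described here are those of the cytosolic ribosomal proteins of the mouse, measured in testis. They were found by symbol: every non-control probe whose accession led to a gene named Rpl or Rps with a number, including copies ending in a, x, l or l1, or named Rplp0, Rplp1, Rplp2 or Rpsa. That gave 84 genes on the array, with 147 probes, of 23462 genes named in all. Of the 84, 82 had at least 1 probe that could be tested, among 16738 genes tested. Rpl37 was well above background on 0 of 5 R arrays and 0 of 5 C arrays, and Rpl3l, the copy of Rpl3 known from striated muscle, was well above it on 0 of 5 R arrays and 2 of 5 C arrays, so neither was compared. All 82 tested members were well above background on all 10 arrays.

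The testes came from C57BL/6N males of 6 weeks, 1 testis and 1 array per animal. Mothers of the 5 R animals received 50% of what control mothers ate, starting 6.5 days post coitum, and their pups were fostered to unrelated control females. Mothers of the 5 C animals ate freely and reared their own pups, so prenatal diet and fostering cannot be told apart. Regular chow was given to both groups after weaning, and the litter of each animal is not named in the labels. The p-values count each male as a separate replicate, although some may be brothers.

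A ribosome is built of a small and a large subunit, each a frame of ribosomal RNA covered by many different proteins that are needed in equal numbers. Their messages are among the most abundant of most cells and many begin with a C followed by a run of pyrimidines, the 5′ terminal oligopyrimidine motif, through which growth signals control their translation. In male germ cells the X chromosome is silenced during meiosis, and some X-linked ribosomal protein genes have autosomal copies that are used in the germ line: Rpl10l for Rpl10 and Rpl39l for Rpl39 are the known cases in the mouse.

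The start of the message is the sequence feature that many members share, so the annotated start of 7 genes is shown. Each line holds 30 bases of the gene's own strand, 15 before the annotated start and 15 from it on, taken from RefSeq on GRCm38.p6. Capitals mark a C at the annotated start and the pyrimidines (C or T) that follow it without a break, where at least 4 do.
Rps10: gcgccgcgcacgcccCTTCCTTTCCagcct
Rpl15: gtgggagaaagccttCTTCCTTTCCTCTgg
Rps6: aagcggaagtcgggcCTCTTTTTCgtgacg
Rpl10: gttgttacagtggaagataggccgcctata
Rpl10l: tttggcctccattttgcggctggcggtggg
Rpl39: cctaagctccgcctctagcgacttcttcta
Rpl39l: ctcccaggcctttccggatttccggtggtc
The first 3 windows lie at chr17:27635230-27635259, chr14:18270972-18271001 and chr4:86857353-86857382, all on the minus strand, and show the motif of small and large subunit genes. The other 4 belong to the X-linked genes Rpl10 (chrX:74270801-74270830, plus strand) and Rpl39 (chrX:37085208-37085237, minus strand) and to their autosomal copies Rpl10l (chr12:66284387-66284416, minus strand) and Rpl39l (chr16:10170213-10170242, plus strand). None of these 4 has the tract at its annotated start, and Rpl39 alone of them has one within 5 bases of it.

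A start was listed for 61 of the 82 tested members. The tract stood exactly at an annotated start in 14 of the 61 (23.0%), against 3.01% of the 27025 genes listed. It began within 5 bases of a start in 30 (49.2%), against 21.2% of all genes listed. The search read the gene's strand only, and an annotated start can miss the one used in testis. The 30 members with a tract had a median log2 change of −0.26 between R and C, and the 31 without one had −0.19. These are medians over genes that share the same arrays and carry no test.

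The ribosomal protein genes lay lower in R testes as a group, by a small amount. Of the 82, 27 were lower in R than in C and 0 were higher (limma, adjusted p under 0.05), which is 32.9% of them beside 34.6% called in either direction, 22.1% called lower and 12.6% called higher among all genes tested. The fitted change was below 0 in all 82 members, against 56.2% of all genes. The median log2 change was −0.20, against −0.05 over all genes, and the members ranged from −0.69 to −0.00. The members are brighter than most genes: 75 of 82 lay above the 90th percentile of signal level, with a median percentile of 96.8. Within the members the brighter ones tended to have changes nearer 0 (Spearman rho of change with level 0.36). No comparison with other genes of like level is given here. The study's own criterion asks for a fold above 1.5 as well, and it was met by 1 member, Rps14, where 6.88% of all genes met it in the lower direction. In 27 members every R array was below every C array, beside 18.3% of all genes. Rpl9 and Rpl17 were called with groups that overlapped, while groups apart did not always bring a call, as for Rpl11.

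**Figure D1:**
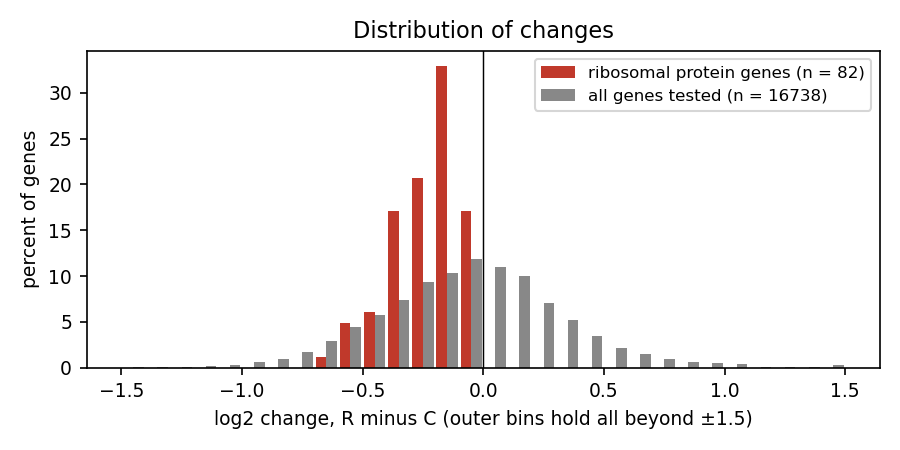
Share of genes (percent, vertical axis) by log2 change, R minus C (horizontal axis, bins of 0.1), for the 82 ribosomal protein genes in red and all 16738 genes tested in grey. The members lie between −0.69 and −0.00 around a median of −0.20, inside the wider spread of all genes, whose median is −0.05.

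The log2 signal used throughout is the log2 of the processed spot intensity minus the 75th percentile of its array, so a value of 5 stands for a spot 5 doublings above that percentile. Averaged over the 82 members it was 5.51, 5.63, 5.46, 5.51 and 5.48 in R replicates 1 to 5, and 5.72, 6.10, 5.63, 5.60 and 5.72 in C replicates 1 to 5. The groups touched, since R replicate 2 was at the level of C replicate 3 and above C replicate 4. The means were 5.52 ± 0.07 in R and 5.75 ± 0.20 in C (SD, n = 5 each). C replicate 2 was the highest of all 10 arrays in 82 of 82 members, with a median of 0.42 above the mean of the other C arrays, and R replicate 2 was the highest R array in 76. This height of C replicate 2 was not particular to the members. Most other gene lists given below also had their highest mean there, such as Sertoli (3.56), spermatid (6.29) and assembly factor (2.29) genes. Spermatocyte and adipocyte lists were highest on other arrays. The median spot intensity of C replicate 2 was the lowest of the 10 arrays (61.4, against 82.7 to 106.0). Without C replicate 2 the median change was −0.12 and 72 of 82 members lay below 0. In that fit 27 were again called lower, 26 of them the same, beside 20.8% of all genes, whose median was −0.04.

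**Figure D2:**
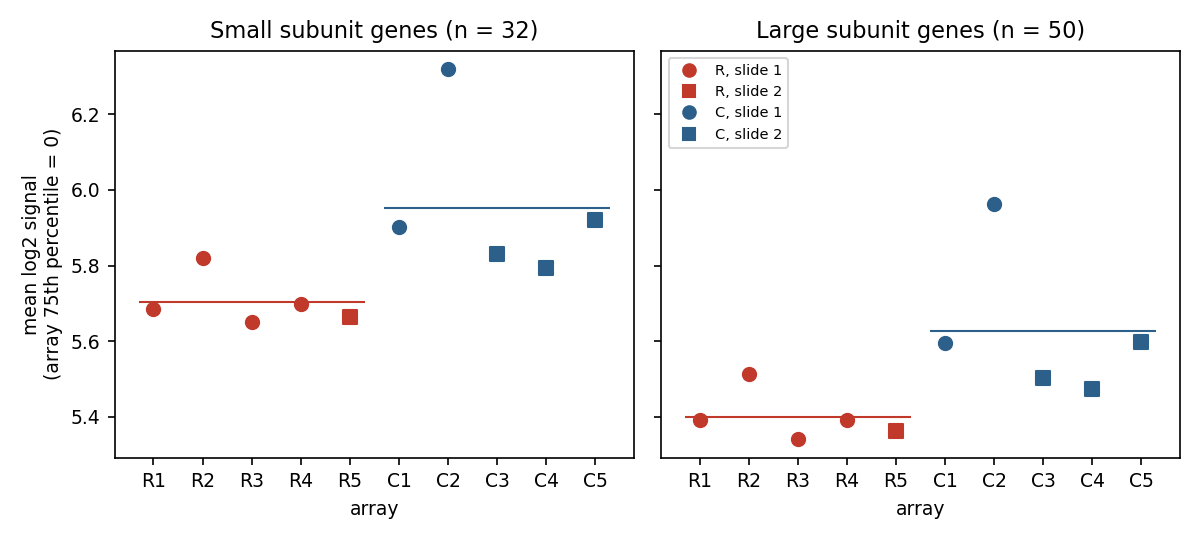
Mean log2 signal (vertical axis) of the 32 small subunit genes (left) and the 50 large subunit genes (right) on each R and C array. Circles are the first slide and squares the second, and lines mark the group means (n = 5). For the small subunit R arrays lie between 5.65 and 5.82 and C arrays between 5.79 and 6.32. For the large subunit R arrays lie between 5.34 and 5.51 and C arrays between 5.47 and 5.96. C replicate 2 is at the top of both panels.

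The arrays were hybridised on 2 slides, the first holding 4 R and 2 C arrays and the second 1 R and 3 C arrays. On the first slide all R arrays were below both C arrays in 62 of 82 members, and the median change was −0.35. There 28 members were called lower, beside 24.4% of all genes. On the second the single R array was below all C arrays in 68 of 82, the median change was −0.13 and 0 members were called (11 at an unadjusted limma p under 0.05). With 1 R array limma called 0 of all 16738 genes there, so that count says nothing about the members in particular. With the slide as a block the median was −0.28 and 49 members were called lower, among them all 27 of the fit without it, where 30.8% of all genes were called lower. The high array, C replicate 2, was 1 of the 2 C arrays on the first slide. It therefore weighed more in the fit of that slide and in the block fit, and neither was run without it. Of the members given below as not called, Rpl3, Rpl11, Rpl13a, Rpl36a, Rpl39, Rplp0, Rplp2, Rps4x, Rps6, Rps10 and Rps27a were called lower with the block, at limma adjusted p-values of 0.0473 at most for those chosen by the naming rule. The count of 27 fell to 13 without R replicate 1, to 12 without R replicate 3, 4 or 5, and to 14 without C replicate 5. In those fits 14.9% to 17.7% of all genes were called lower, so the share of the 82 members was near that of all genes. In each of the 10 fits that left out 1 array, 12 of the 27 members were called. Of the called members named below, Rpl10 lost its call in 4 of these 10 fits, Rpl5, Rps27 and Rpl22l1 in 5 and Rplp1 in 6.

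Members moved up and down together from animal to animal. Over the 10 arrays, the deviations of the members from their group means had a median pairwise correlation of 0.91 over 3321 pairs, 0.18 at the lowest and all above 0. C replicate 2 was the highest array in all 82 members, and no correlation was computed without it or for other bright genes. The part of that 1 array in the correlation is therefore not known. The arrays share their scaling between all members, so this is a description, and the 82 members are not 82 separate observations. The members that followed the mean of the others least were Rpl7a (0.49), Rpl10l (0.60), Rpl18 (0.65) and Rps14 (0.70).

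Among small subunit genes, 10 of 32 were lower in R and the median change was −0.20. The 32 include Rps4l, whose probe matches a RefSeq non-coding transcript. Rps14, which sits on the platform of the small subunit and is known for its loss in the human 5q minus syndrome, was the farthest apart. Its log2 signal was 6.84, 7.04, 6.75, 6.81 and 6.87 in R replicates 1 to 5, and 7.22, 7.89, 7.39, 7.49 and 7.79 in C replicates 1 to 5. All R arrays lay below all C arrays, and Rps14 was 1.62-fold lower in R (95% confidence interval 1.33 to 1.97, adjusted p = 0.00454 by limma). Rps21 had 5.42, 5.62, 5.40, 5.43 and 5.49 in R, and 5.81, 6.27, 5.80, 5.80 and 5.96 in C. These groups did not overlap either, and the difference was 1.37-fold (adjusted p = 0.00877, limma). Rps7, one of the ribosomal proteins that bind the p53 regulator Mdm2, had 5.16, 5.17, 5.14, 5.06 and 5.11 in R, and 5.32, 5.79, 5.47, 5.45 and 5.66 in C, with groups apart and a fold of 1.33 (adjusted p = 0.00868, limma).

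Rps3, which lines the entry of the message into the ribosome and also takes part in DNA repair, was lower on all R arrays. Its signal was 4.11 to 4.32 in R and 4.55, 5.03, 4.44, 4.42 and 4.56 in C, 1.34-fold lower in R (adjusted p = 0.0205, limma). Rps6, the protein phosphorylated when the mTOR pathway is active, was not called: it had 5.29, 5.38, 5.30, 5.31 and 5.29 in R and 5.51, 5.75, 5.37, 5.32 and 5.41 in C. R replicate 2 stood inside the C values, and the log2 change was −0.16 (adjusted p = 0.158, limma). A dimmer Rps6 probe was called lower (−0.23, adjusted p = 0.0288, limma over all probes). Rps27a, which is made as a fusion with ubiquitin, had a change of −0.24 (adjusted p = 0.122, limma). Rpsa, which also serves as a laminin receptor, had −0.21 (adjusted p = 0.143, limma). Rps19, the gene most often mutated in human Diamond-Blackfan anaemia, had −0.17 (adjusted p = 0.323, limma). None of these was called. A dimmer Rps19 probe was called lower (−0.32, adjusted p = 0.0447, limma over all probes), while the dimmer probes of Rps27a and Rpsa were not.

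Among large subunit proteins, 17 of 50 were lower in R and the median change was −0.19. Rpl5 and Rpl11 bind 5S ribosomal RNA together and can hold Mdm2. Rpl5 had 3.07, 3.09, 2.96, 2.98 and 2.89 in R and 3.34, 3.81, 3.24, 3.17 and 3.30 in C. The groups were apart and Rpl5 was 1.30-fold lower in R (adjusted p = 0.0316, limma). Rpl11 had 6.81, 6.87, 6.80, 6.80 and 6.81 in R and 6.90 to 7.24 in C, also apart, and its smaller change of −0.19 was not called (adjusted p = 0.0641, limma). Rpl15, whose start is printed above, was lower on every R array, at 5.46, 5.54, 5.42, 5.40 and 5.42, against 5.69, 6.07, 5.72, 5.69 and 5.80 in C (log2 change −0.34, adjusted p = 0.0130, limma). Rpl15 and Rps10 are named here for their start sequence. Rps10, whose tract is shorter but begins with the same letters, had a change of −0.29 and was not called (adjusted p = 0.0667, limma). A dimmer Rps10 probe was called lower (−0.38, adjusted p = 0.0164, limma over all probes).

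The stalk proteins recruit the elongation factors to the large subunit. Rplp1 was lower in R, at 5.43, 5.61, 5.39, 5.50 and 5.53, against 5.80, 6.22, 5.65, 5.64 and 5.90 in C, a fold of 1.28 (adjusted p = 0.0329, limma). Every R array was below every C array, R replicate 2 by the least. Its partners were not called: Rplp0, the base of the stalk, had a change of −0.30 (adjusted p = 0.0540) and Rplp2 of −0.16 (adjusted p = 0.324, limma). Rpl13a, part of a complex that blocks translation of some messages after interferon gamma in human cells, had −0.25 (adjusted p = 0.133), and Rpl38, whose loss alters the translation of Hox messages in mouse embryos, −0.16 (adjusted p = 0.231), neither called by limma. At the other end of the range Rpl23 (−0.00), Rpl30 (−0.01) and Rpl31 (−0.02) had changes close to 0, and were chosen after their values were seen.

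**Figure D3:**
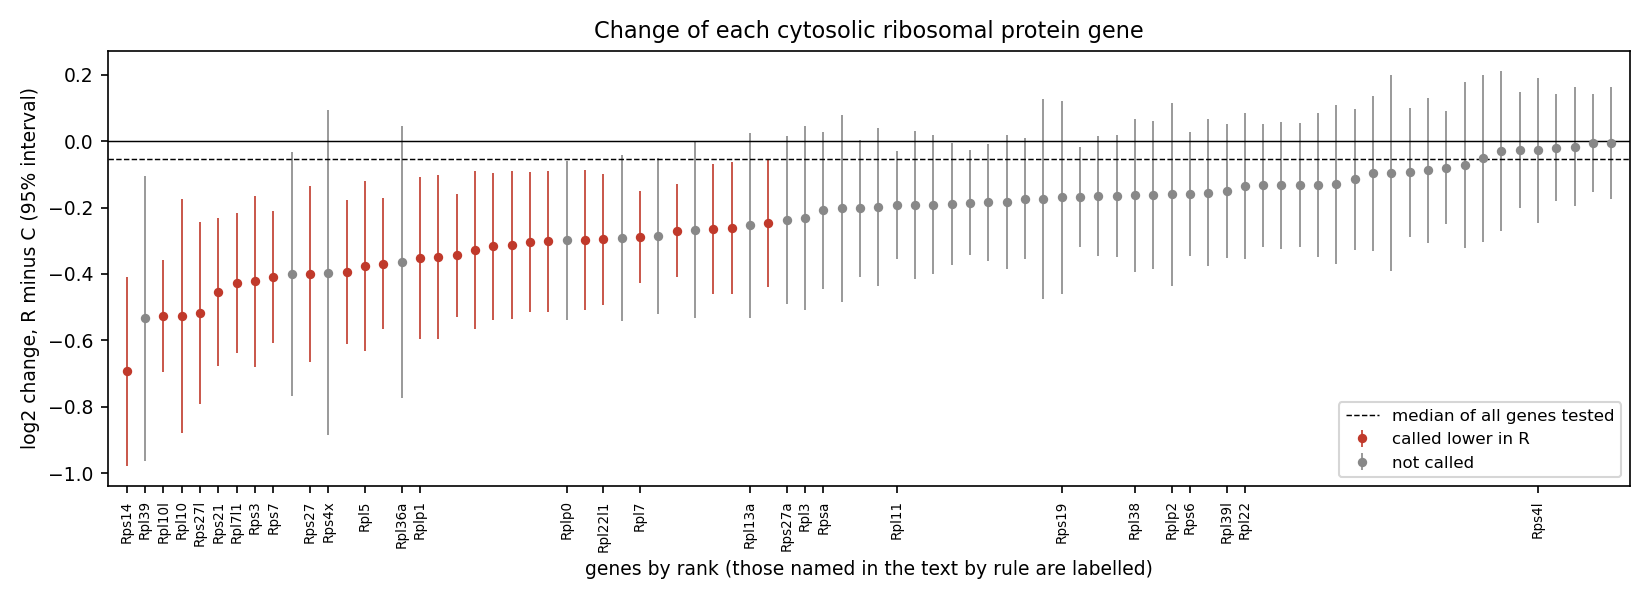
Log2 change, R minus C, with its 95% confidence interval for each of the 82 members, ranked, in red where called lower and grey where not called, with the genes chosen by the naming rule labelled. The dashed line is the median of all genes tested, −0.05. The 27 members called lower have intervals entirely below 0, and Rps14 at −0.69 is at the far end.

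Members of large families with many processed copies in the genome can share signal between copies, and their single values are uncertain for that reason. Where a gene had several probes, they mostly agreed in direction. Of 144 tested probes, 140 had a change below 0, 57 were called lower and 0 higher, adjusted over all probes (limma). The share called lower among all tested probes was not counted. With this adjustment and 1 probe a gene, 27 of the 82 members were called lower, beside 22.9% of all genes. All probes were below 0 in 43 of 46 members with more than 1. Rpl13 and Rps24 were among the exceptions, each with a probe slightly above 0. The size depended on the probe: in 36 of 46 the dimmest probe had the lower change, with a median of −0.30 for dimmest and −0.20 for brightest probes. For Rpl3, which shapes the peptidyl transferase centre, the brightest probe gave −0.23 (adjusted p = 0.158) and was not called, while the dimmest gave −0.72 (adjusted p = 0.00362, both by limma over all probes).

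**Figure D4:**
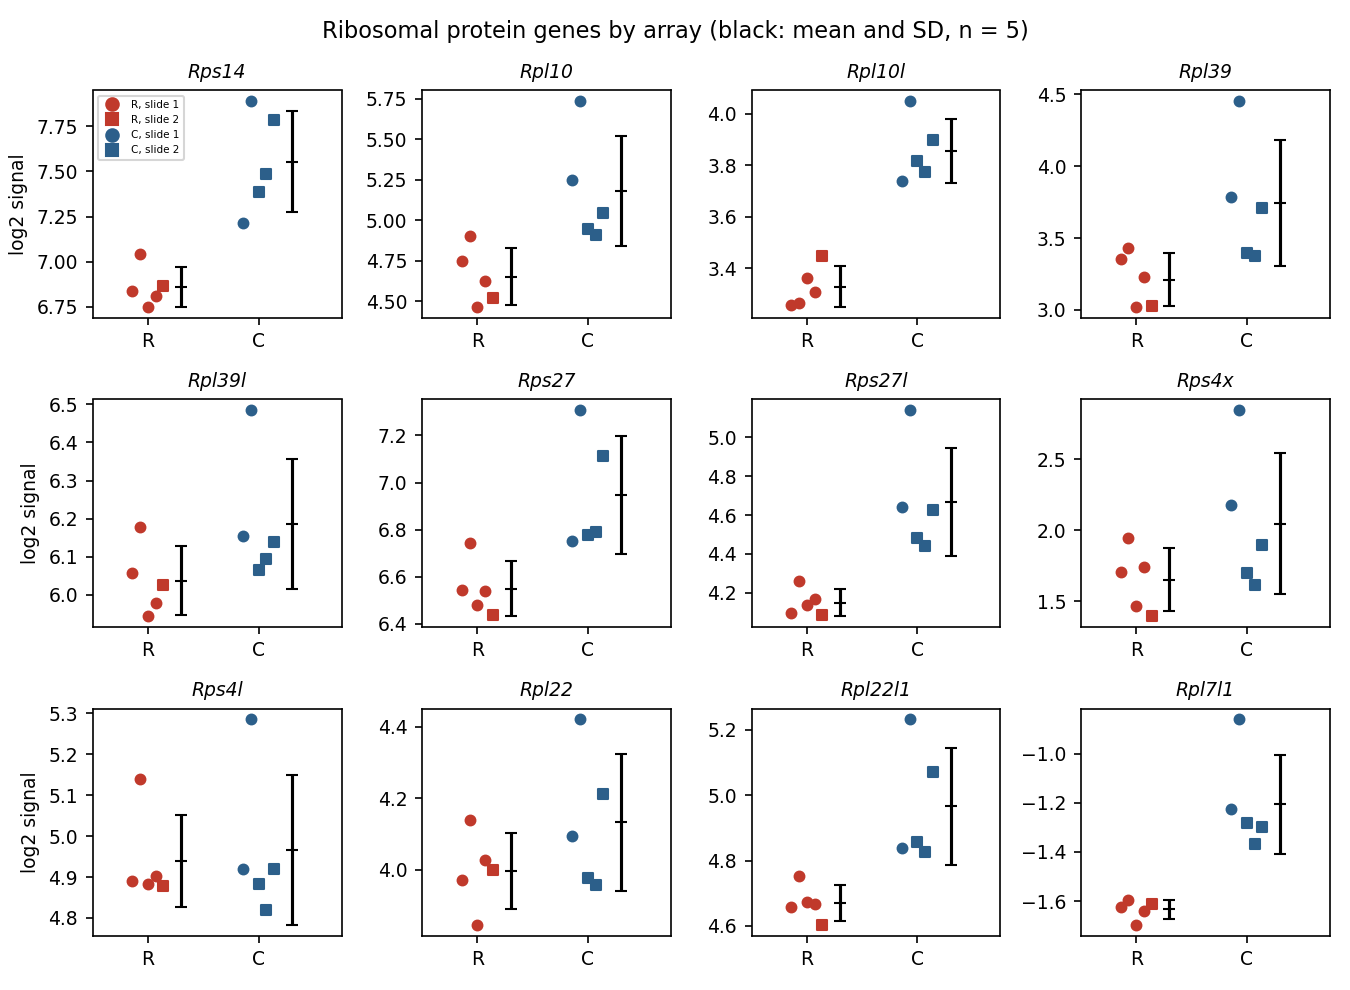
Log2 signal of named members (1 panel each, each with its own vertical scale) in R and C arrays, 1 point per array (circles first slide, squares second slide), with mean and SD in black (n = 5). Rps14 and Rpl10l have R points wholly below C points, while Rpl39l and Rps4l overlap.

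The gene copies named for a parent gene ask whether a copy moved with the gene it is named for. Of these copies, only Rpl10l and Rpl39l are the germ line cases named above. Of the 7 copies tested, 4 were lower in R (Rpl10l, Rps27l, Rpl7l1 and Rpl22l1), with a median change of −0.30, and the other 3 (Rpl39l, Rps4l and Rpl32l, at −0.10) were not called. Without the copies, 23 of 75 members were lower and the median was −0.20. Rpl10l lies on chromosome 12 and takes the place of X-linked Rpl10 in meiosis. Its signal was 3.26, 3.27, 3.36, 3.31 and 3.45 in R and 3.74, 4.05, 3.82, 3.77 and 3.90 in C. The groups were well apart, and Rpl10l was 1.44-fold lower in R (95% confidence interval 1.28 to 1.62, adjusted p = 0.00187, limma), the smallest adjusted p of the 82 members. Rpl10 had 4.75, 4.90, 4.46, 4.62 and 4.52 in R and 5.25, 5.74, 4.95, 4.91 and 5.05 in C. It too was 1.44-fold lower with groups apart, by a wider interval (1.13 to 1.84, adjusted p = 0.0292, limma).

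Rpl39 and Rpl39l are small proteins of the peptide exit tunnel, and Rpl39l is the form of male germ cells. Rpl39 had 3.35, 3.43, 3.02, 3.23 and 3.03 in R and 3.79 and 4.46 in C replicates 1 and 2 and 3.38 to 3.71 in the other C arrays. R replicate 2 was above C replicates 3 and 4, and the change of −0.53 was not called (adjusted p = 0.0548, limma), although all 5 of its probes lay below 0, from −0.53 to −0.33. Over all probes, 3 of the 5 were called lower (Rpl39, adjusted p = 0.0337, 0.0458 and 0.0496, limma). Rpl39l had 6.06, 6.18, 5.94, 5.98 and 6.03 in R and 6.15, 6.49, 6.06, 6.09 and 6.14 in C, and its change of −0.15 was not called (adjusted p = 0.207, limma).

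The difference copy minus parent within each array was compared between groups with an exact 2-sided permutation test over all splits of the arrays, in 6 pairs, where the smallest p it can give is 0.00794. Its absolute size depends on the probes and is no ratio of transcripts. Dimmer probes of a gene mostly had lower changes, as given above, and the probes of a pair differ in brightness. The part of brightness in the pair differences was not tested. Rpl39l minus Rpl39 was 2.70 to 3.00 in R and 2.03 to 2.72 in C, so that R was higher by 0.38 (2.83 ± 0.13 in R and 2.44 ± 0.27 in C, SD, n = 5 each, exact permutation p = 0.0159, 0.0476 adjusted over 6 pairs). Only R replicate 1 lay within the C values here, so the X-linked gene was farther below C than its copy. For Rpl10l minus Rpl10 the means were −1.32 ± 0.24 in R and −1.32 ± 0.26 in C, with no difference to be seen (−0.00, exact permutation p = 1, adjusted p = 1).

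Rpl7l1, a relative of Rpl7, had a signal of −1.70 to −1.60 in R and −1.23, −0.86, −1.28, −1.37 and −1.30 in C. It was 1.34-fold lower in R (adjusted p = 0.00887), and Rpl7, at 5.26, 5.26, 5.21, 5.16 and 5.26 in R and 5.47, 5.67, 5.48, 5.48 and 5.50 in C, was 1.22-fold lower (adjusted p = 0.00783, both limma). Both sets of R arrays lay wholly below C, and the copy was lower by 0.14 more than the parent (exact permutation p = 0.0159, 0.0476 adjusted over 6 pairs). The probe of the copy was far dimmer than that of the parent, which limits this comparison. Rpl22l1 was lower in R, at 4.66, 4.75, 4.67, 4.67 and 4.60, against 4.84, 5.23, 4.86, 4.83 and 5.07 in C (1.23-fold, adjusted p = 0.0291, limma). Rpl22, at 3.84 to 4.14 in R and 4.09, 4.42, 3.98, 3.96 and 4.21 in C, overlapped and was not called (−0.14, adjusted p = 0.293, limma). The copy was lower by 0.16 more than its parent (exact permutation p = 0.0238, 0.0476 adjusted over 6 pairs).

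Rps27l, a p53 target in human cells, had 4.09, 4.26, 4.14, 4.17 and 4.08 in R and 4.64, 5.14, 4.48, 4.44 and 4.63 in C, 1.43-fold lower with groups apart (adjusted p = 0.0121, limma). Rps27 had 6.54, 6.74, 6.48, 6.54 and 6.44 in R and 6.75, 7.31, 6.78, 6.79 and 7.11 in C, 1.32-fold lower (adjusted p = 0.0281, limma), and the pair did not differ in the test of the difference (−0.12, exact permutation p = 0.143, adjusted p = 0.171). Rps4x, an X-linked gene of the small subunit, had 1.71, 1.94, 1.47, 1.74 and 1.39 in R and 2.85 at the highest and 1.61 at the lowest in C. Its groups overlapped and the change of −0.40 was not called (adjusted p = 0.175, limma). A dimmer Rps4x probe was called lower (−0.46, adjusted p = 0.0432, limma over all probes). The chromosome 6 copy Rps4l, whose probe matches a RefSeq non-coding transcript, had −0.03 and was not called (adjusted p = 0.844, limma). Rps4l minus Rps4x was 0.37 higher in R (exact permutation p = 0.0714, 0.107 adjusted over 6 pairs). The 3 called pair differences are all at the edge of the threshold, and each was lost under several alternative settings.

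**Figure D5:**
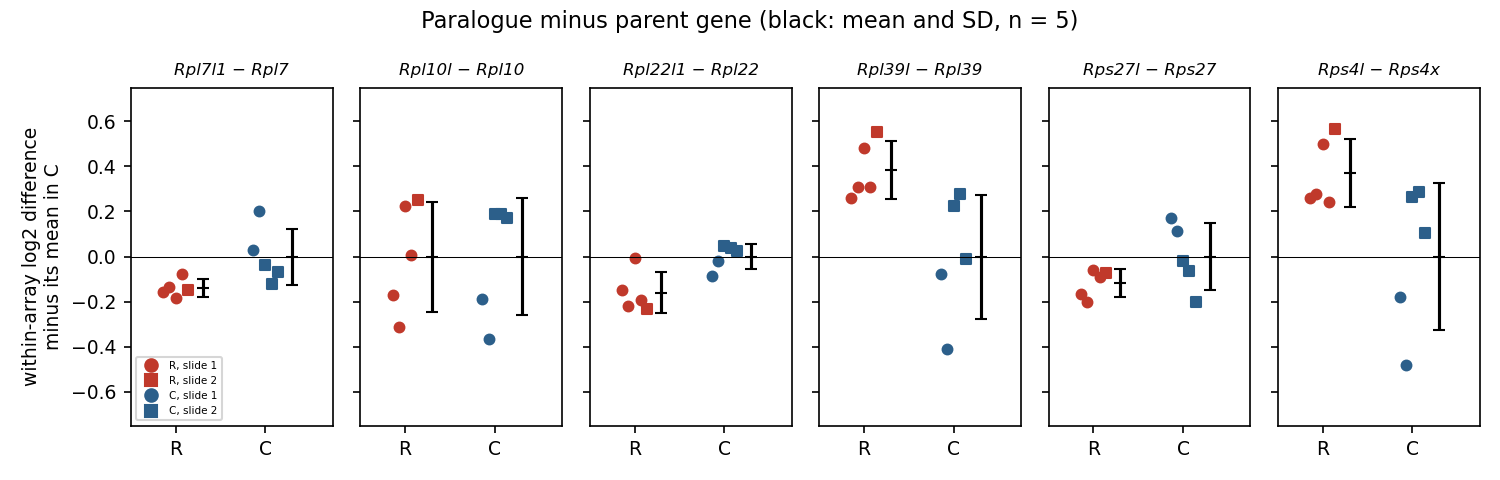
Within-array log2 difference of each copy minus its parent gene, shown relative to its mean in C, for R and C arrays (circles first slide, squares second slide) with mean and SD in black (n = 5). R lies above C for Rpl39l by 0.38 and below it for Rpl7l1 by 0.14 and Rpl22l1 by 0.16, while Rpl10l shows no shift.

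The 4 members on chromosome X were Rpl10, Rpl39, Rps4x and Rpl36a, with changes from −0.53 to −0.36 and a median of −0.46, of which 1 was called. With the slide as a block all 4 were called, Rpl39 at −0.72 (adjusted p = 0.00746), Rps4x at −0.63 (adjusted p = 0.0130) and Rpl36a at −0.54 (adjusted p = 0.0208, all by limma). The block fit gave C replicate 2 more weight and was not run without it. Rpl36a had 2.87, 3.19, 2.82, 2.97 and 2.76 in R and 3.32, 3.96, 2.98, 2.89 and 3.26 in C. R replicates 2 and 4 reached into the C values, and its change of −0.36 was not called (adjusted p = 0.142, limma). Genes of chromosome X as a whole had a median of −0.31 over 653 genes tested, of which 271 (41.5%) were lower and 30 (4.59%) higher in R.

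Of the ribosome proteins outside the symbol rule, 0 of 5 were called by limma, with a median of −0.12; Rack1, a scaffold protein on the small subunit head, came nearest, at −0.40 (limma adjusted p = 0.0580, unadjusted 0.0216). All 5 lay below 0. Of the genes that transcribe ribosomal RNA, 3 of 13 (23.1%) were lower, among them Polr2f (−0.44), and Polr1a, the largest subunit of RNA polymerase I, higher by 0.32 on the log2 scale (adjusted p = 0.0130, limma). Of 44 assembly factors, 11 (25.0%) were lower and 5 (11.4%) higher, near the 22.1% and 12.6% of all genes tested, with a median of −0.13. The X-linked Dkc1, of the box H/ACA particles that modify ribosomal RNA, was among those called, but it was well above background on only 1 of 5 R arrays and 4 of 5 C arrays, so no size is given. Nip7, needed for 60S maturation, was −0.74 (adjusted p = 0.00312), Nop16 −0.54 (adjusted p = 0.00476) and Utp20 −0.29 (adjusted p = 0.00848, all limma). Of 15 elongation factors and other messages with the pyrimidine motif, 3 (20.0%) were lower and 0 higher, also near the share of all genes, with a median of −0.10, and these were the splicing factor Hnrnpa1 (−0.52), the initiation factor Eif3h (−0.31) and the cytoskeletal protein Vim (−0.38).

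In a whole testis, fewer cells of a type and less RNA per cell cannot be told apart. All 10 spermatid markers, all 10 spermatocyte markers and all 14 Sertoli markers were well above background on all 10 arrays. Spermatid marker means were 6.03 to 6.15 in R and 6.06 to 6.29 in C, and 1 of 10 was lower. Of the Sertoli markers 12 of 14 were lower and 1 higher, and their mean was 2.63 to 2.80 in R against 2.88 to 3.56 in C. Of the macrophage and leukocyte markers 6 of 10 were lower, with means of −2.41 to −1.72 in R against −1.68 to −1.04 in C. Only 8 of the 10 were well above background on all arrays: Lyz2 was so on 2 of 5 R and 5 of 5 C arrays and Ptprc on 1 of 5 R and 4 of 5 C arrays, so their inclusion rests mainly on C, and 4 of the other 8 were lower. Spermatogonial markers had 5 of 10 lower and 1 higher (−0.11 to 0.00 in R, 0.12 to 0.59 in C), and spermatocyte markers 4 of 10 lower and 1 higher (3.72 to 3.86 in R, 3.93 to 4.14 in C). Leydig markers had 3 of 8 lower (0.82 to 1.36 in R, 0.99 to 1.90 in C), blood markers 2 of 3 lower (0.29 to 1.41 in R, 1.20 to 2.17 in C), and adipocyte markers 0 of 5 called, with means of −1.12 to 1.12 in R and −3.44 to 0.49 in C, highest in replicate 2 of each group. For 4 of the 5 adipocyte markers the change was above 0, with a median of 2.08 on the log2 scale, opposite in sign to the ribosomal protein genes, and 2 of the 5 were well above background on all arrays. The part of any cell type in the lower ribosomal protein signal was not tested.

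The authors' deposited table lists 2266 probes, of which 10 carry a symbol of the ribosomal protein form, among them Rpl3, Rpl7, Rpl7l1, Rpl15 and Rps6. All 10 have a log2 ratio below 0 in the authors' deposited table, from −0.45 to −0.08, with p-values of 0.00934 to 0.0486 and a q-value of 0.515, where 57.5% of its rows lie below 0. Its control side averaged R replicate 1 with C replicates 1 to 4 and its test side R replicates 2 to 5 with C replicate 5, against the labels. With that grouping limma on the log2 signal called 0 members and 0 of all genes tested (median change of the members −0.14, 0 members at an unadjusted p under 0.05). Without R replicate 1 and C replicate 5 it called 5 members (Rps14, Rpl10l, Rpl7l1, Rps7 and Rpl7), with a median of −0.21. There 9.72% of all genes were called lower, a larger share than 5 of the 82 members.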

How the data were processed

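RNA of single testes was labelled with Cy3 and hybridised to 1-colour Agilent arrays, 1 per animal. The deposited spot intensity values are Agilent Feature Extraction 12.0.3.1 output, per the submitters' processing notes; the processed intensity was background-subtracted within an array, per the file headers, and not normalised between arrays. Between 54.6% and 65.9% of probes were well above background and 0 spots were saturated; the number of arrays limits precision. The authors also deposited a table of log2 ratios, p-values and q-values; 10 further per-sample columns in it were not used.

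Control and outlier spots were dropped and spots of a probe averaged. Values are log2 of the processed intensity, scaled by subtracting the 75th percentile of each array. Accessions matched a RefSeq gene table (GRCm38.p6) for 33767 of 56605 probes; the others were left unnamed. A probe was tested if 5 or more of the 10 arrays had it well above background, and each gene is represented by the tested probe of highest mean signal. limma 3.58.1 in R 4.3.3 (lmFit, eBayes, 2-sided) was fitted over all genes with Benjamini-Hochberg adjustment; a call is an adjusted p under 0.05. Pair differences had an exact permutation test. The procedure was tested on simulated data. Members, lists, pairs and alternatives were chosen with earlier results of these data known. Named genes were the pairs, chromosome X, stalk and 8 further members, the 8 largest called changes in each direction (0 were higher), and up to 4 of smallest p per other list. For normexp, the spot median signal was used with the local background median, since the mean signal planned for it was not in the files used here.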

Additional observations from a re-analysis of the deposited data

Results flagged for a closer look

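In 15 of 72 groups of 5 arrays examined, 1 array stood apart from the other 4 by more than 0.71 of the group's range, where chance marks about 5% of groups. The groups share arrays, so these are not separate events. The mean of the ribosomal protein genes was 5.63 in R replicate 2 and 6.10 in C replicate 2, each the high value of its group. C replicate 2 was also apart in Rps27l (5.14), Rpl7l1 (−0.86), Rps3 (5.03), Rpl39l (6.49), Rps4l (5.29), Rpl7 (5.67), Rpsa (6.12), Rpl5 (3.81), Rpl13a (6.02) and Rpl38 (7.34). R replicate 2 was apart in Rps4l (5.14), Rps6 (5.38) and Rpl11 (6.87). Over all 82 members, C replicate 2 stood apart in 31 and 8 R groups had an array apart. The values without C replicate 2 stand beside the counts in the report.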

How the results depend on the processing

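Over every setting tried, 0 members were called higher in R. The 27 members called lower became 41 with the array median as reference, 49 with the slide as a block, 12 with no filter on dim probes, 0 on slide 2 alone, 5 without R replicate 1 and C replicate 5, and 0 with the grouping of the authors' table (lowest member adjusted p 0.487 by limma, 0 at an unadjusted p under 0.05; on slide 2 alone 11). In both of these fits 0 of all genes were called, and slide 2 has 1 R array. Leaving out 1 array gave 12 to 30. With no filter on dim probes 10.5% of all genes were called lower. Members with a change below 0 numbered 71 with array weights, 75 with quantile normalisation and 77 on slide 2, of 82. The median change of −0.20 became −0.39 with the array median as reference, −0.28 with the slide as a block, −0.35 on slide 1, −0.13 on slide 2 and −0.11 with array weights, and −0.24 to −0.12 with 1 array left out. The array median moved the median of all genes to −0.24, against −0.05. It shifts all genes of an array alike, so the members stay −0.15 from that median by construction. That distance was −0.06 with array weights, −0.08 without C replicate 2 and −0.09 with quantile normalisation or on slide 2. It was −0.22 with the slide as a block and −0.28 on slide 1. Both of these fits gave C replicate 2 more weight, as 1 of the 2 C arrays on slide 1. With the array median as reference 36.6% of all genes were lower and 5.09% higher.

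The Rpl7l1 and Rpl7 difference lost its call with normexp (−0.074), on slide 1 (−0.25), on slide 2 (−0.070), without R replicate 1 and C replicate 5 (−0.15) and with the authors' grouping (−0.10). That of Rpl22l1 and Rpl22 lost it with normexp (−0.16), quantile normalisation (−0.16), on slide 1 (−0.087), on slide 2 (−0.27), without those 2 arrays (−0.16) and with the authors' grouping (−0.090). That of Rpl39l and Rpl39 lost it with normexp (0.38), quantile normalisation (0.39), on slide 1 (0.58), on slide 2 (0.39), without those 2 arrays (0.41) and with the authors' grouping (0.27). Within 1 slide the permutations are too few for a call, and without those 2 arrays 70 splits remain, so that a call would need several pairs at the smallest p. That of Rps4l and Rps4x gained one with the mean of all probes (0.40, adjusted p = 0.0238, exact permutation test). With 1 array left out the ranges were −0.17 to −0.089 for Rpl7l1, −0.20 to −0.14 for Rpl22l1, 0.28 to 0.45 for Rpl39l, −0.17 to −0.076 for Rps27l, 0.25 to 0.44 for Rps4l and −0.09 to 0.08 for Rpl10l, each against its parent. Leaving out 1 array ended the call in 6 of 10 cases for Rpl7l1, 8 for Rpl22l1 and 6 for Rpl39l (highest adjusted p 0.111, exact permutation test), and added one in 1 case each for Rps27l and Rps4l. The causes were not tested. No paired analysis was possible because the labels give no numbers or litters that pair R with C animals.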
